A study of Mus musculus with 12 samples.

Results

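The 10 genes described here are 9 mouse tubulin genes and Gm17383, a predicted gene of tubulin-like sequence, out of 11806 genes by the authors' deposited table of vitrified against fresh ovarian follicles. They were taken by symbol, namely Tuba1a, Tuba1b, Tuba1c, Tubb2a, Tubb2b, Tubb4b, Tubb5, Tubb6, Tubg1 and Gm17383, and all 10 had a row and an adjusted p. The set was chosen by the fold changes and p-values of this same comparison, which were known when the symbols were listed, so the fold changes and p-values of these genes are given as a description. The study sequenced RNA of 12 single follicles from CD-1 mice, which are outbred, at an age of 16 days, 6 kept fresh and 6 vitrified, that is, cooled rapidly into a glass-like state for storage. Both groups were then grown for 8 days, each follicle alone in a bead of 0.5% alginate with 10 mIU/mL recombinant follicle-stimulating hormone, and libraries followed a Smart-seq protocol on lysate of 1 follicle. Whether several follicles came from 1 animal is not stated, and the p-values treat each follicle as independent. The table gives a total pooled over the libraries, a fold change and p-values for each gene, so no level per follicle or per group is shown.

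Microtubules are hollow polymers of alpha- and beta-tubulin dimers, and gamma-tubulin sits in the ring complex that starts new ones. In a follicle they form the spindles of dividing granulosa cells and the meiotic spindle of the oocyte, and microtubules are known to come apart on cooling. Mammals carry several alpha and beta genes, called isotypes, whose coding sequences are very alike, and many processed pseudogenes, which are copies of spliced mRNA inserted elsewhere in the genome. Cells also adjust tubulin mRNA to the amount of free tubulin, through the factor TTC5, which recognises the first residues of alpha- and beta-tubulin as they leave the ribosome.

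The sequences below are the first 24 coding bases of 8 of the tubulin genes, on chromosomes 2, 11, 13, 15 and 17, from GENCODE release 21 of the mouse (GRCm38), with the first 12, which encode the residues read in that adjustment in alpha- and beta-tubulin, in capitals. They are shown because they separate the alpha, beta and gamma families at a glance.
Tuba1a: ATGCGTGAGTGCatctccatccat
Tuba1b: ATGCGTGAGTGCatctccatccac
Tuba1c: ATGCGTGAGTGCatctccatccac
Tubb2a: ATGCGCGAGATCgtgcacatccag
Tubb2b: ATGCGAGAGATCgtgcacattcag
Tubb4b: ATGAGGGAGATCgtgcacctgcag
Tubb5: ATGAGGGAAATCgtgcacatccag
Tubg1: ATGCCGAGAGAAatcatcacccta
The 3 alpha genes had 1 and the same run of 12 bases, whereas the 4 beta genes shown had 4 different ones. Over whole coding sequences the 3 alpha pairs were 97.1% to 98.3% identical. Tubb2a and Tubb2b were 96.5% identical, and the 9 other pairs among the 5 beta genes 80.2% to 84.6%. Alpha with beta gave 56.1% to 57.7%, and Tubg1 with the alpha and beta genes 52.2% to 54.2%.

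How alike the alpha genes are can be seen in 60 coding bases, from base 640 to 699 counted from the A of the start codon, chosen as a stretch with the most positions that differ among the 3 (of the stretches that share at most 30 bases in a row with Gm17383 or Tubb6), with those positions in capitals.
Tuba1a: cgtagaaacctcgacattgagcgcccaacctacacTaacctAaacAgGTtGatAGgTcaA
Tuba1b: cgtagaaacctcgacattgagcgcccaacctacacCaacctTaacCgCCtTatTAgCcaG
Tuba1c: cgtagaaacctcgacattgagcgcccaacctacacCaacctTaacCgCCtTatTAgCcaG
Here 10 of 60 positions differed, all between Tuba1a and the other genes, while Tuba1b and Tuba1c were identical. The same search among 4 beta genes gave 25 of 60 differing positions, from coding base 136 to 195.
Tubb2a: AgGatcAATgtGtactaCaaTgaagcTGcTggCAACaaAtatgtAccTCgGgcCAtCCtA
Tubb2b: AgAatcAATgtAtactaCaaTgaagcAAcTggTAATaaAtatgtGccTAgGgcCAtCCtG
Tubb4b: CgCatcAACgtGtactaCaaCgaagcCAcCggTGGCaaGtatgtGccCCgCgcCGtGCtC
Tubb5: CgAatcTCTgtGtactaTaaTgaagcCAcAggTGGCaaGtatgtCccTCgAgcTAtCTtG
These positions vary among 4 genes here and among 3 above, so the 2 counts do not compare how well single genes can be told apart.

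Gm17383 was much lower in vitrified follicles, and it alone of the 10 genes was past the threshold of 0.05 on the adjusted p. The authors' deposited table has it 5.04-fold lower, at a log2 ratio of vitrified over fresh of -2.33, with a 95% interval from -2.98 to -1.68 and an adjusted p of 1.1e-08. This p was number 2 from the lowest in the whole table, and the fold change number 6 from the lowest among the 10963 genes with an adjusted p. Its pooled total by the authors' deposited table was 3401. If that total is divided between 6 fresh and 6 vitrified libraries by the fold change, 83.5% of it falls to the fresh ones. The submitters' processing notes list DESeq2, with no version or role, and do not state which test gave these p-values. Read as normal and replaced by a t distribution with 10 degrees of freedom, they end the call (adjusted p = 0.196), as they do for all 58 called genes.

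By position, Gm17383 lies on chromosome 18 from 82338462 to 82339816 (GRCm38, plus strand). GENCODE annotates it as a processed pseudogene of 1 exon, while the 8 alpha and beta genes have 4 exons each in their longest coding transcript. The label of tubulin-like sequence held, and more narrowly the sequence was that of an alpha-tubulin. Its 1355 bases aligned to the whole 1356-base coding sequence of Tuba1b with 17 mismatches and 1 gap position, which is 98.7% identity. Against the coding sequence of Tuba1a the identity was 97.9% and against that of Tuba1c 97.1%. The lincRNA AC157548.1, on the minus strand of chromosome 18 from 82336250 to 82361600, spans the whole pseudogene, and 1 of its transcripts contains all of the sequence in the opposite direction. AC157548.1 was not analysed here. Whether the authors counted by strand is not given in the sources, so reads of the pseudogene and of its antisense partner cannot be told apart.

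How much of each transcript can be assigned to 1 gene was measured as the share of its windows, taken at every base, that occur letter for letter in a transcript of another gene on the same strand. For windows of 50 bases that share was 76.9% for Gm17383, 73.8% for Tuba1b, 72.9% for Tuba1a and 61.0% for Tuba1c. With windows of 100 bases it was 57.7% for Gm17383, and with 150 bases 40.5%. On that strand 718 of its 1206 windows of 150 bases thus occurred in no other gene. With both strands counted, the share for Gm17383 was 100% at 50, 100 and 150 bases, so no window was its own. At 50 bases it was then 83.1% for Tuba1b, 75.5% for Tuba1a, 61.0% for Tuba1c and 55.5% for Tubb4b. Among beta genes the same-strand share at 50 bases was 50.9% for Tubb4b, 49.6% for Tubb2a and 39.3% for Tubb2b, against 0.115% for Tubb5 and 0 for Tubb6. Tubg1, whose neighbour Tubg2 lies 29487 bases away on chromosome 11, stood at 14.1%. The read length and the rule for reads with several matches are not given in the sources, so the counts of Gm17383, the 3 alpha genes, Tubb4b, Tubb2a and Tubb2b are uncertain to that extent, while Tubb5 and Tubb6 are nearly free of this limit.

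**Figure D1:**
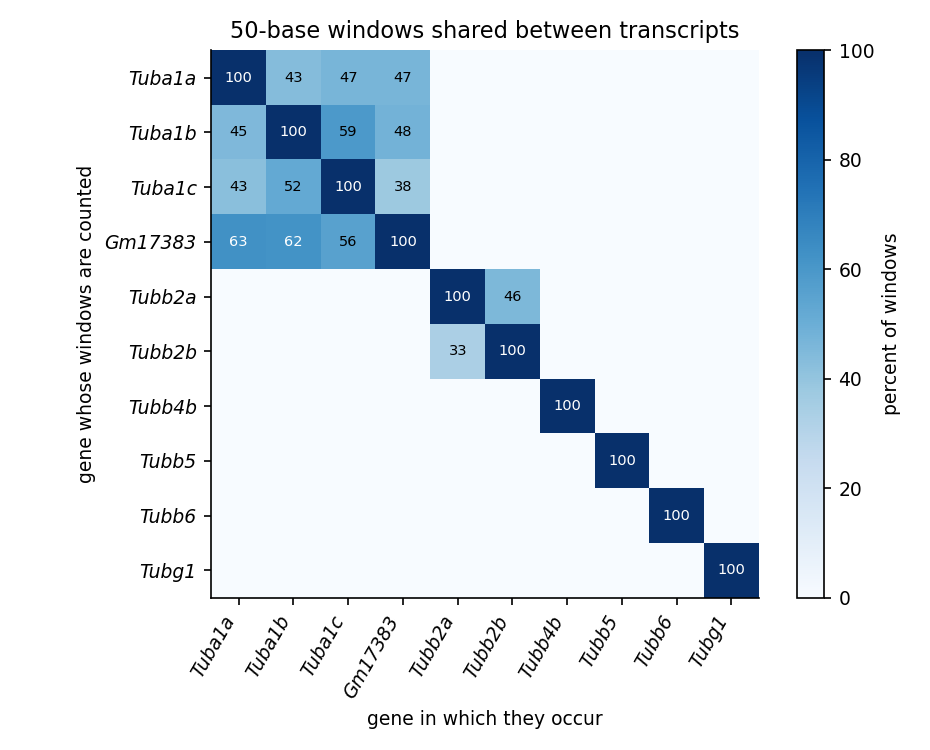
Percent of the 50-base windows of each transcript (rows) that occur in the transcripts of another of the 10 genes (columns), on the same strand; each gene contains all of its own. Gm17383 shares 62.6% of its windows with Tuba1a, 61.9% with Tuba1b and 55.7% with Tuba1c, and Tubb2a shares 45.6% with Tubb2b, while Tubb4b, Tubb6 and Tubg1 share none with the other members and Tubb5 almost none.

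The alpha-tubulin genes lie together on chromosome 15, Tuba1b from 98931425 to 98934565, Tuba1a from 98949837 to 98953703 and Tuba1c from 99029891 to 99038110 (GRCm38). Tuba1b, a broadly expressed alpha isotype, had the highest pooled total of the 10 genes by the authors' deposited table, 27104. It was 1.47-fold lower in vitrified follicles by the authors' deposited table, with a log2 ratio of -0.56 (-1.01 to -0.10), an unadjusted p of 0.017 and an adjusted p of 0.49. Tuba1a, the alpha isotype best known from developing neurons, had a total of 19129 and a log2 ratio of -0.42 (-0.84 to 0.01) by the authors' deposited table (p = 0.054). Tuba1c, another broadly expressed isotype, had a total of 13001 and a log2 ratio of only -0.09 (-0.52 to 0.35) by the authors' deposited table (p = 0.70). None of the 3 passed the threshold, and their intervals overlap one another. None of these intervals reaches that of Gm17383, but that gene was chosen with its low value known, so nothing is read from this. Gm49450, annotated as a protein-coding gene from 98932137 to 98953551 on the same strand, overlaps both Tuba1b and Tuba1a, and reads from that span could belong to any of these genes.

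The 5 beta-tubulin genes all had values below 0, from -0.58 to -0.03 on the log2 scale by the authors' deposited table, and none passed. Tubb5, the most abundant of them and a major isotype of dividing cells, lies on chromosome 17 from 35833921 to 35838306. It had a total of 22409 and a log2 ratio of -0.39 (-0.93 to 0.14) by the authors' deposited table (p = 0.15). Tubb4b, a broadly expressed isotype also found in cilia, on chromosome 2 from 25222160 to 25224702, had a total of 7087 and a log2 ratio of -0.13 (-0.57 to 0.31) by the authors' deposited table (p = 0.56). Tubb2a and Tubb2b, isotypes abundant in neurons, are 48740 bases apart on chromosome 13. Tubb2a had a log2 ratio of -0.32 (-0.94 to 0.30) on a total of 560 by the authors' deposited table, and Tubb2b, on a total of 931, one of -0.03 (-0.55 to 0.50). Tubb6, a minor isotype on chromosome 18 from 67390717 to 67402749, had the lowest fold change of the beta genes by the authors' deposited table, -0.58, but also the widest interval of the 10 genes (-1.36 to 0.21) on a total of 455.

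Tubg1, the main gamma-tubulin gene, on chromosome 11 from 101119938 to 101126419, has 11 exons in its longest coding transcript. It had a total of 531 and a log2 ratio of -0.40 (-0.79 to -0.0033) by the authors' deposited table, with an unadjusted p of 0.048 and an adjusted p of 0.71. Its paralog Tubg2 had a pooled total of 51.5, a log2 ratio of 0.01 and no adjusted p by the authors' deposited table. The difference between the paralogs was not tested, since both values come from the same follicles and no value per follicle is given.

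**Figure D2:**
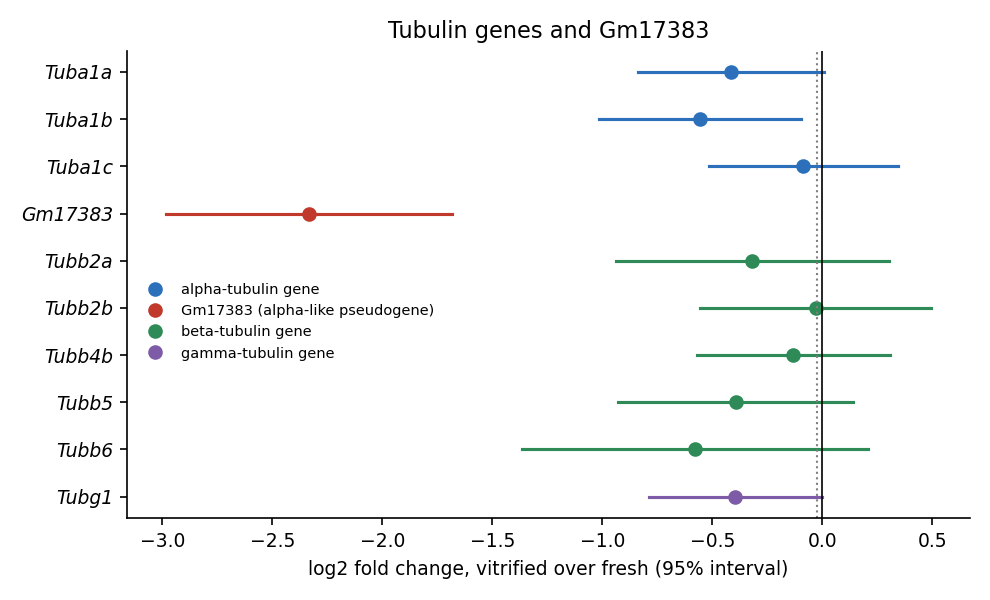
Log2 fold change of vitrified over fresh follicles for each gene (points, x axis) with its 95% interval (lines), derived from the deposited fold change and p-value; the dotted line marks the median of all tested genes, -0.02. All 10 points lie left of 0, the 9 tubulin genes between -0.58 and -0.03, and the interval of Gm17383 overlaps none of theirs. The 10 genes were chosen with these values known, so nothing is read from that gap.

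Counted together, 10 of the 10 genes had a lower value in vitrified follicles by the authors' deposited table, where 53.2% of all tested genes did. Of the 10, 1 passed the adjusted threshold, against 0.529% of all tested genes in either direction and 0.283% in the lower direction. At an unadjusted p under 0.05 there were 3, namely Gm17383, Tuba1b and Tubg1, against 7.02% of all tested genes. The median log2 ratio was -0.39 both with Gm17383 and over the 9 tubulin genes alone, against -0.02 for all tested genes by the authors' deposited table. These genes were chosen with the values known, so nothing is read from these counts about the family. For 7 of the 9 tubulin genes the 95% interval crossed 0, the exceptions being Tuba1b and Tubg1. For 7 it lay wholly within 2-fold, the exceptions being Tuba1b and Tubb6. A fall of 2-fold is therefore outside the interval, as derived under a normal test, of Tuba1a, Tuba1c, Tubb2a, Tubb2b, Tubb4b, Tubb5 and Tubg1. Smaller differences in either direction are within most of these intervals. Intervals under a t distribution, which would be wider, were not derived.

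Levels between genes were compared as pooled total per kilobase of the longest coding transcript, or of the pseudogene. Tuba1b was highest at 15551 per kilobase, followed by Tuba1a at 10610, Tubb5 at 8459, Tuba1c at 6560 and Tubb4b at 4435. Gm17383 came next at 2510 per kilobase. The remaining genes were far lower, Tubb2b at 427, Tubb2a at 348, Tubg1 at 295 and Tubb6 at 259 per kilobase. The highest of the 10 thus stood 60.04-fold above the lowest, and the pseudogene stood above Tubb2b, Tubb2a, Tubg1 and Tubb6. Every 50-base window of Gm17383 occurs in another gene when both strands are counted, so its place in this order is uncertain. No spread between follicles can be given for these levels, so neighbours in the order cannot be tested against each other. Together the 10 genes held 0.398% of the sum of all totals by the authors' deposited table.

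**Figure D3:**
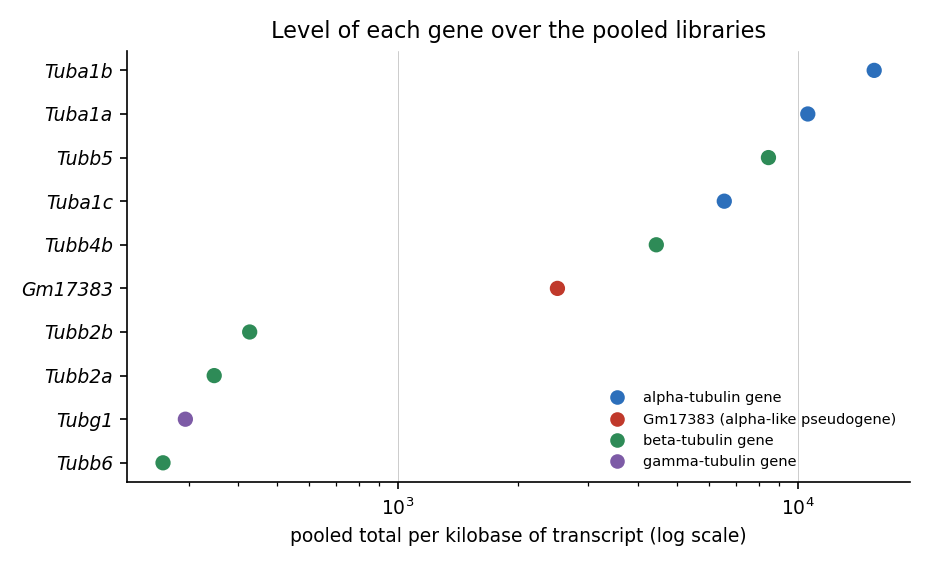
Pooled total per kilobase of transcript (x axis, log scale) for each of the 10 genes, coloured by family; each point is 1 value over all libraries, with no error available. Tuba1b, Tuba1a, Tubb5, Tuba1c and Tubb4b lie at 4435 or above, Gm17383 at 2510, and the other 4 between 259 and 427.

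Gm17383 is one of several alpha-tubulin copies with counts in these libraries, and none of the others described here passed the threshold. Genes with at least 300 bases aligned at 90% identity or more to Tuba1a, Tuba1b, Tuba1c or Gm17383 were searched among all GENCODE transcripts, a search chosen after the values of the table had been seen. Outside the 10 genes it found 13, of which 8 have a row, with 3 higher, 5 lower, 0 past the authors' adjusted threshold and 2 at an unadjusted p under 0.05, and a median log2 ratio of -0.34 by the authors' deposited table. Over all tested genes 53.2% were lower, 0.529% passed and 7.02% had an unadjusted p under 0.05, so a count of 0 past the threshold in 8 genes is near the background. The processed pseudogene Gm3756, on chromosome 9, is 98.7% identical to Tuba1b, as Gm17383 is. On a pooled total of 4380 it had a log2 ratio of -0.22 (-0.70 to 0.26) by the authors' deposited table. Gm14150, on chromosome 2, had the highest total of the copies, 6075, and a log2 ratio of -0.45 (-0.91 to 0.01) by the authors' deposited table (p = 0.055). Gm3226, on chromosome 13, was on the other side of 0 at 0.34 (-0.12 to 0.79) on a total of 4224 by the authors' deposited table.

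Of the 5 pseudogene copies at 97% identity or more, with totals between 286 and 6075, 2 were higher, 3 lower and 0 past the threshold by the authors' deposited table. Gm6682 had a log2 ratio of 0.32 (-0.32 to 0.97), and Gm5620, at the total of 286, -0.73 (-1.38 to -0.08) by the authors' deposited table. Gm49450, the gene overlapping Tuba1b and Tuba1a, stood at 0.32 (-0.12 to 0.75), and the more distant pseudogene Gm15599 at -0.56 (-1.47 to 0.36), by the authors' deposited table. Slc7a11, the cystine transporter gene, carries 588 bases of alpha-tubulin sequence in the opposite direction at 92.3% identity, and had a log2 ratio of -1.22 (-2.25 to -0.19) on a total of 64.2 by the authors' deposited table (adjusted p = 0.53). Of these 8 copies and the 3 alpha genes, 11 in all, 10 had an interval that did not overlap that of Gm17383, and Slc7a11 was the 1 that did. Gm17383 was chosen with its low value known, so this count is largely fixed in advance, and nothing is read from it. The share of all tested genes with an interval that misses that of Gm17383 was not counted. The difference between Gm17383 and each relative was not tested. Among the beta genes 1 such copy had a row, Tubb4b-ps1 at 98.4% identity to Tubb4b, with a log2 ratio of -0.36 (-0.92 to 0.21) by the authors' deposited table.

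**Figure D4:**
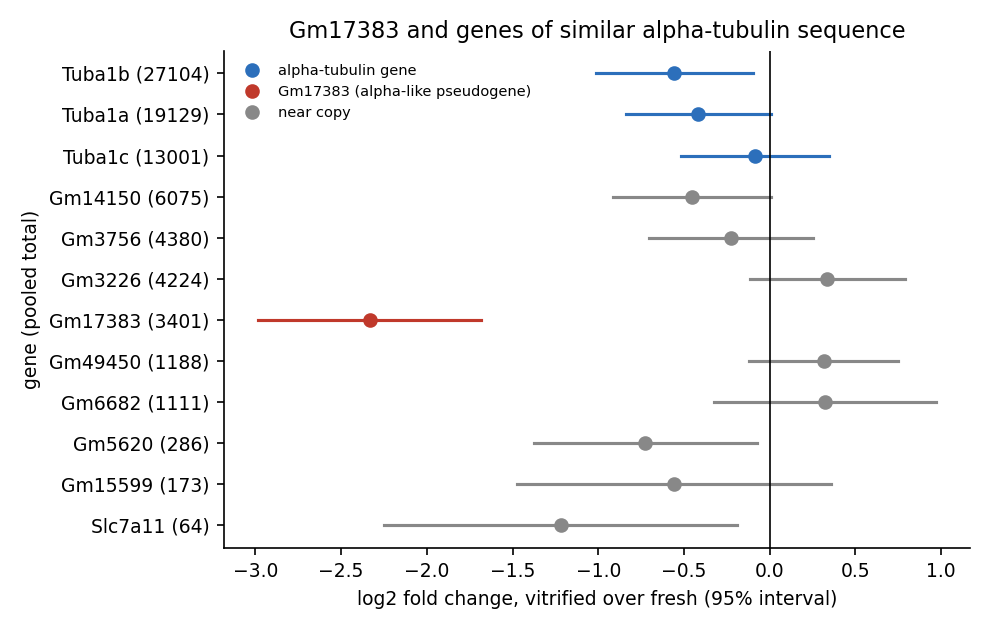
Log2 fold change of vitrified over fresh (points, x axis) with 95% intervals (lines) for Gm17383, the 3 alpha-tubulin genes and the 8 genes that hold a similar alpha-tubulin sequence, ordered by pooled total (in brackets). Gm17383, at -2.33, lies below the 3 copies of next higher total, Gm3226, Gm3756 and Gm14150, which lie between -0.45 and 0.34.

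Other processed pseudogenes were also among the genes called. Of the 58 genes past the threshold by the authors' deposited table, 5 are annotated as processed pseudogenes, or 8.62%, against 666 of 10839 tested genes with a gene type, or 6.14%. The share among the called genes is thus near the background, and nothing is read from it. Besides Gm17383 these were Gm2123 and Gm16439, with log2 ratios of -3.62 and -1.38, Rpsa-ps10, a pseudogene of the laminin receptor and ribosomal protein gene Rpsa, at -0.93, and Gm9847 at 0.88 by the authors' deposited table. They are named because they were called, after their values had been seen.

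The other genes of the microtubule system were counted in 7 lists, none of whose genes was called. Of the 107 listed, 93 had a row and 87 an adjusted p, and 26 were higher, 61 lower and 0 past the threshold by the authors' deposited table. Over all tested genes 53.2% were lower and 0.529% passed, so a count of 0 in 87 is near the background. At an unadjusted p under 0.05 there were 2 of 87, Map1b and Agbl5, against 7.02% of all tested genes, and the median log2 ratio was -0.10. Map1b, which encodes a microtubule-stabilising protein, had a log2 ratio of -0.52 (-0.86 to -0.17) on a total of 21446 and an adjusted p of 0.23 by the authors' deposited table. Agbl5, a carboxypeptidase that trims glutamate chains from tubulin, stood at -0.71 (-1.25 to -0.17) with an adjusted p of 0.38 by the authors' deposited table.

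The remaining tubulin isotypes were scarce. Of the list of 11, 6 had a row and 3 an adjusted p, with 2 higher and 1 lower by the authors' deposited table. Tubb3, the neuronal beta isotype, had a log2 ratio of 0.46 (-0.20 to 1.12) on a total of 133, and Tubb4a one of 0.49 (-0.56 to 1.55) on 64.6, by the authors' deposited table. Tuba4a stood at -0.49 (-1.35 to 0.36) on a total of 181 by the authors' deposited table. For the gamma-tubulin ring complex and nucleation factors, 6 of 19 were higher and 13 lower, with a median of -0.14 and 0 called by the authors' deposited table. The augmin subunit gene Haus5 stood at -0.80 (-1.72 to 0.11), Nedd1, which recruits the ring complex, at -0.51, and Cdk5rap2, a centrosome protein that activates it, at -0.32 by the authors' deposited table.

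Tubulin folding, which runs through prefoldin, the CCT chaperonin and a set of cofactors, had 7 of 20 tested genes higher and 13 lower, a median of -0.03 and 0 called by the authors' deposited table. Cct4, a chaperonin subunit gene, stood at -0.21 (-0.45 to 0.04), and the cofactor genes Tbce and Tbcel at 0.59 and -0.74 by the authors' deposited table. Of the genes of tubulin mRNA adjustment, Ttc5 had a log2 ratio of -0.13 (-0.60 to 0.34) and Cnot11, of the deadenylase complex, 0.54 (-0.35 to 1.42) by the authors' deposited table. Genes of tubulin modification had 4 of 14 higher, 10 lower, a median of -0.11 and 0 called by the authors' deposited table, with Tpgs1 of the polyglutamylase complex at -0.39 and the tyrosine ligase gene Ttl at -0.33. Microtubule-associated and plus-end protein genes had 5 of 21 higher, 16 lower, a median of -0.10 and 0 called, with the plus-end tracker gene Clip1 at -0.39 and the spindle pole gene Numa1 at -0.29 by the authors' deposited table. Genes that take microtubules apart or sever them had 1 of 8 higher, 7 lower, a median of -0.26 and 0 called by the authors' deposited table. Among these, Kif2a, a depolymerising kinesin gene, stood at -0.74, and the severing gene Spast at -0.69 by the authors' deposited table.

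**Figure D5:**
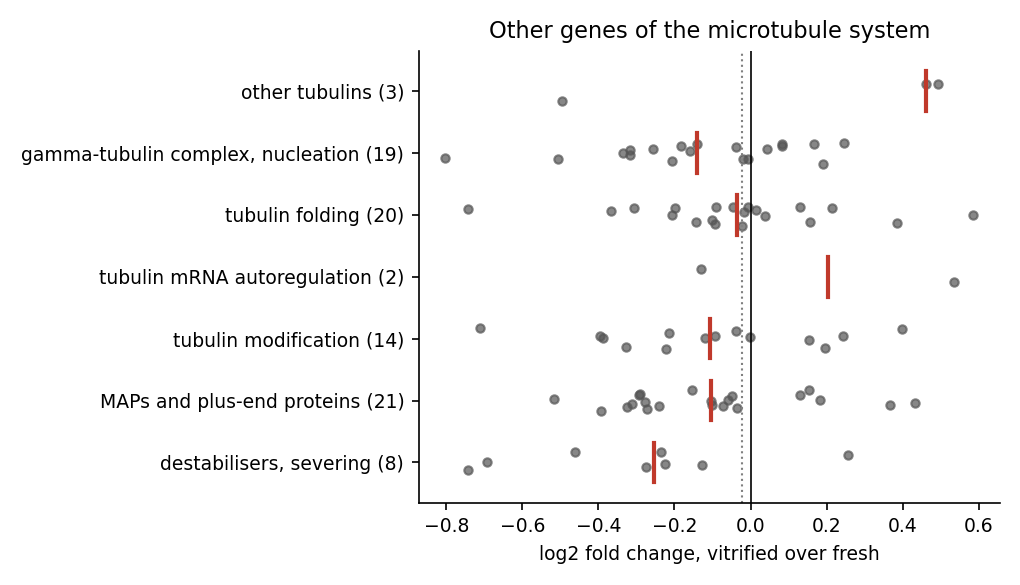
Log2 fold change of vitrified over fresh (x axis) for each tested gene (grey points) of 7 lists of the microtubule system, with the number of tested genes in brackets; red bars are list medians and the dotted line is the median of all tested genes. List medians run from -0.26 for destabilising and severing genes to 0.46 for the other tubulins, which are 3 genes, and no gene of these lists was called.

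Markers of the cells in a follicle and of division were read beside these values, and over all tested genes 53.2% were lower, 0.529% passed the threshold and 7.02% had an unadjusted p under 0.05. The granulosa genes, which included Inha at a pooled total of 1121840, had 4 of 8 tested markers higher, 4 lower and a median log2 ratio of 0.01 by the authors' deposited table. Inha itself stood at -0.02, and Fshr and Fst, both with an unadjusted p of 0.013, at 0.67 and -0.82 by the authors' deposited table. Proliferation markers, the genes of cells in division, were lower in 8 of 8, with a median of -0.48 and 0 called by the authors' deposited table. Of these 4 had an unadjusted p under 0.05, Anln at -0.84, Mcm3 at -0.63, Cdk1 at -0.60 and Mki67 at -0.54 by the authors' deposited table. Oocyte markers were higher in 6 of the 6 with an adjusted p, with Zp3, of the zona pellucida, at 1.05 (-0.48 to 2.58) by the authors' deposited table. Dazl, which encodes an RNA-binding protein of germ cells, is an oocyte marker with no adjusted p on a pooled total of 44.3. It was the other way at -2.14 (-3.56 to -0.73), and at an unadjusted p of 0.0030 it had the lowest p of that list by the authors' deposited table. Nlrp5, also an oocyte marker without an adjusted p, stood at 0.92 (-0.50 to 2.33) by the authors' deposited table. Theca markers were higher in 6 of 7, with Cyp17a1 at 1.47 (-0.04 to 2.97), by the authors' deposited table. Hsd3b1, which had the highest pooled total of the theca list, 435485, was the lower one at -0.11 (-0.47 to 0.25). Cyp11a1 stood at 0.47 (-1.08 to 2.03) and Lhcgr at 0.08 (-1.20 to 1.37) by the authors' deposited table. Among theca markers Insl3 at 2.70, Star at 1.60 and Aldh1a1 at 1.19 had an unadjusted p under 0.05, and 0 markers of any of these lists were called by the authors' deposited table. Endothelial markers were lower in 2 of the 2 with an adjusted p, as was Kdr, which has none, at -1.42, and stroma markers were higher in 3 of 3 by the authors' deposited table. The markers of ciliated or surface epithelium pointed both ways, Krt8 at 0.22 (p = 0.68) and Upk3b, which has no adjusted p, at -2.59 (-6.26 to 1.08) by the authors' deposited table. Summed marker levels per group are not given by a pooled table, and the part of these markers in the tubulin values was not tested. In RNA of whole follicles, fewer cells of a type and less RNA per cell cannot be told apart.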

How the data were processed

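RNA-seq libraries of 12 single follicles (6 fresh, 6 vitrified, grouped by title) were analysed through the authors' comparison table. Per the submitters' processing notes, Bowtie2, HISAT2, Partek, DESeq2 and mm10 were used, with no version or role. The authors deposited, per the file headers, a pooled total count for each gene, a p-value, its step-up adjustment, a signed fold and its log2 value (called log2 ratio in the text). These deposited totals are a pooled signal, not raw counts, as only 0.237% are whole within 0.001. Depth per follicle is unknown. An adjusted p is missing for 843 genes of low total.

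The deposited adjusted p was used at 0.05. Errors and 95% intervals were derived from log2 fold change and p under a normal test, with a median standard error of 0.29. The derivation was run on data simulated with normal errors, which cannot show whether the normal test holds for these follicles. Sequences came from GENCODE release 21 of the mouse (GRCm38, which mm10 names), aligned with blastn 2.17.0 and compared in Python 3.11.15. The members, the 7 microtubule lists and the markers were chosen with earlier results of these data known. Named were all members, up to 3 genes of lowest p per microtubule list (1 of which is not reported here), and markers at an unadjusted p under 0.05 beside Inha, Zp3 and Cyp17a1. Outside this rule, Nlrp5, Kdr, Krt8, Upk3b, Hsd3b1, Cyp11a1, Lhcgr and Tubg2 were named after their values were seen. The copies of alpha- and beta-tubulin and the called pseudogenes were added after their values were seen. Alternatives were no filter on totals, totals of at least 120, a t distribution with 10 degrees of freedom, centring on the median, and only members with under 50% of 50-base windows shared.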

Additional observations from a re-analysis of the deposited data

How the results depend on the processing

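The count of members past the threshold, 1 as deposited, stayed at 1 with no filter on totals, with totals of at least 120 and after centring on the median. With a t distribution of 10 degrees of freedom it was 0, as was the count over all genes (0 in place of 58), which follows from the heavier tails. It was also 0 among the 5 members with under 50% of their windows shared, because that choice leaves out Gm17383. The count of microtubule list genes past the threshold was 0 in each setting run. Of 40 single-gene values under these alternatives, 39 kept their direction and their side of the threshold, and the exception was Gm17383 with the t distribution (adjusted p = 0.196). Direction could change only after centring, which removed a median of -0.02, because the other alternatives keep the deposited fold changes. The count of kept directions is therefore largely fixed in advance. No paired analysis was possible because the table holds no values per follicle. For the same reason leaving out each replicate was not run.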
